A study of Rattus norvegicus with 13 samples.

Results

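The Sox genes encode transcription factors that bind DNA through an HMG box, a domain first found in the sex determining factor SRY. The members described here were listed by name, with earlier results of these data known, and the rule used no measured value: *Sox1*, *Sox2*, *Sox3* (subgroup SoxB1), *Sox21* (SoxB2), *Sox4*, *Sox11* (SoxC), *Sox5*, *Sox6* (SoxD), *Sox8* and *Sox9* (SoxE). The list is not the whole Sox family. Of its 10 names, 9 had a row in the deposited table of 14716 rows, with 1 row each, and *Sox3* is not analysed here. RNA was sequenced from the posterior ventricular zone (VZ), the pseudostratified epithelium of progenitor cells beside the lateral ventricle, of Long Evans rat pups on postnatal day (PN) 2. The tissue was laser captured from cresyl violet stained sections, and each library came from 1 male pup of a separate litter. The study reports some degradation of the captured VZ RNA, while RNA of hippocampal cells from the same slides was intact. The dams of 7 Control pups drank water without PTU (0 ppm), and the dams of 6 PTU pups received 3 ppm of propylthiouracil, which blocks the making of thyroid hormone, in theirs. The compound was given to the dams only, from pregnancy on, and made their offspring hypothyroid per the labels, which call the dams mildly hypothyroid, where the study's text calls them moderately so. No gene was altered in either group.

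In the developing forebrain, SoxB1 factors hold radial glia, the stem-like cells of the VZ, in the progenitor state. *Sox21* acts mainly as a repressor and opposes SoxB1 activity when progenitors leave that state. SoxC factors activate genes of young neurons. SoxE factors are tied to glial competence, and *Sox9* is also expressed in radial glia and ependymal cells. SoxD factors have no activation domain of their own and modify the activity of other Sox proteins on shared sites.

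Promoter sequence was at hand for 4 of the 9 members, in RefSeq's annotation of the GRCr8 assembly. The 250 bases before each annotated start are shown 5' to 3' on the strand of the gene for these 4. They are *Sox21* and *Sox6*, with an unadjusted limma p under 0.05, and *Sox2* and *Sox11*, without. Capitals mark a match, on either strand, to 1 of 4 short motifs: AGGTCA (the half-site of nuclear receptors, among them the thyroid hormone receptors), AACAAT (a SOX core site), ACAAAG (a variant of it) and CCAAT (the CCAAT box). The windows lie at chr15:101703176-101703425 (minus strand) for *Sox21*, chr1:179665372-179665621 (minus strand) for *Sox6*, chr2:119464881-119465130 (plus strand) for *Sox2* and chr6:49738795-49739044 (minus strand) for *Sox11*, all upstream of the annotated first exon.
Sox21: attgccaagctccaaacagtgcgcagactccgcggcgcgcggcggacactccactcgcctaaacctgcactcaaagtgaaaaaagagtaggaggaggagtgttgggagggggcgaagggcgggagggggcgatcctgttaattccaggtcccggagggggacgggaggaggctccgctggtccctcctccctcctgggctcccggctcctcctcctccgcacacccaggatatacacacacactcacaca
Sox6: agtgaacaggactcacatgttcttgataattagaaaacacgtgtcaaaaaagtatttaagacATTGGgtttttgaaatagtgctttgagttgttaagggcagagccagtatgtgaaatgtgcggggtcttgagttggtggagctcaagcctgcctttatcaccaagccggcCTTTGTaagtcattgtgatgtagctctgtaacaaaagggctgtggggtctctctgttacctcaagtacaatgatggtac
Sox2: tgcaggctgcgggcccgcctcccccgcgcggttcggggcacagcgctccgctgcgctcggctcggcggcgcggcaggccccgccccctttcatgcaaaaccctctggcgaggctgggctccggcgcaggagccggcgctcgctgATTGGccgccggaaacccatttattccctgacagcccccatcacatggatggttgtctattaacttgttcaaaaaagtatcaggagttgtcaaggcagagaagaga
Sox11: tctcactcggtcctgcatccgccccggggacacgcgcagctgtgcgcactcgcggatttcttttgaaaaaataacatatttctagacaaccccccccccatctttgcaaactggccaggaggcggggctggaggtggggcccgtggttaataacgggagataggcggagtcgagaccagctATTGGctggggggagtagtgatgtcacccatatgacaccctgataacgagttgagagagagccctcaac

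The *Sox21* window held none of the 4 motifs. *Sox2* and *Sox11* each held 1 CCAAT box on the reverse strand, 106 to 102 bases and 69 to 65 bases before the start. *Sox6* held 1 CCAAT box at 188 to 184 bases and 1 SOX core variant at 79 to 74 bases before the start, both on the reverse strand. Of 33469 RefSeq promoter windows of the same length, 14.1% held AGGTCA, 10.3% AACAAT, 16.3% ACAAAG and 34% CCAAT. The windows of *Sox2*, *Sox21* and *Sox11* were rich in G and C (64.4, 63.2 and 56.8%) and in CpG dinucleotides (23, 16 and 14), whereas that of *Sox6* had 42.8% G and C and 3 CpG, against medians of 51.2% and 5 over all windows. These matches describe letters in 1 window per gene and say nothing of binding.

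All values below are normalized counts, that is, estimated read counts divided by a size factor for each pup. They are not divided by transcript length, so levels were not compared between genes. The estimated number of reads per pup was 22294739 to 43511285 in Controls and 28413684 to 44384790 in PTU pups, and between 483 (*Sox1*) and 30766 (*Sox4*) of them lay behind a single member's value. PTU pup 1 stood apart from the other libraries, with a first principal component of 70.8 against -28.0 to 29.1 in the other 12 pups. It was the lowest of all 13 pups in 8 of the 9 members, every one but *Sox5*, while it was the lowest in 12.4% of all tested rows and the highest in 17.8%. Without PTU pup 1, the log2 fold changes described below were -0.48 for *Sox21*, -0.32 for *Sox9*, -0.23 for *Sox6*, -0.11 for *Sox1*, -0.08 for *Sox5*, -0.04 for *Sox4*, -0.01 for *Sox2*, -0.0046 for *Sox8* and 0.10 for *Sox11*.

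Markers of radial glia were present in every pup: 13 of 13 listed genes had a row and none was at 0. Their summed level was 86660 to 119148 normalized counts in Controls and 70504 to 93238 in PTU pups. Markers of other cells were present too. The sum of 12 neuron markers ran from 57171 to 86207 in Controls and from 76087 to 130829 in PTU pups, highest in PTU pup 1, and that of 12 choroid plexus markers from 52853 to 147919 in Controls and from 24641 to 106653 in PTU pups. Most of the choroid plexus sum was the single gene *Ttr*, with means of 91587 in Controls and 51490 in PTU pups. The study states that choroid plexus cells were not part of its sequencing. None of the neuron or choroid plexus markers was at 0 in any pup. In captured tissue, fewer cells of a type and less RNA per cell cannot be told apart.

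No Sox transcript passed the threshold for a difference between PTU and Control pups. In a limma fit over 14606 rows with a mean of at least 10 normalized counts, 0 of the 9 members had a Benjamini-Hochberg adjusted p of at most 0.05, as was the case for 0% of all rows, and 0 members passed when limma voom was used in place of it. Without adjustment, 3 members (*Sox9*, *Sox21* and *Sox6*) had a limma p under 0.05, all with lower means in PTU pups, where 8.2% of all rows did. A higher mean with such a p was found in 0 members and in 8.11% of all rows. In all, 8 of the 9 members had a log2 fold change below 0, against 49.3% of the rows, and the exception was *Sox11*. The groups overlapped in every member, so 0 of 9 were separated with PTU pups below Controls, against 0.26% of the rows. The median log2 fold change was -0.17 over the members and 0.00 over all rows. The 3 members kept a limma p under 0.05 and a lower mean without PTU pup 1, when the members' median was -0.08, and with each other pup left out in turn.

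The sign of the small differences against 0 depended on how pups were scaled. With an equal total set for every pup (called equal totals below), the median of all rows itself moved to 0.20, 4 of 9 members remained below 0 and none had a limma p under 0.05. The 3 highest rows of each pup took between 23.9 and 60.1% of its estimated reads, and their share enters that total. The median share was 50.9% in Controls and 35.8% in PTU pups. Equal totals multiply each pup by 1 factor and so move all rows of a pup together. Relative to the median of all rows, every member was thus at the same place to 2 decimals on the log2 scale before and after: *Sox21* at -0.57, *Sox9* at -0.37, *Sox6* at -0.29, *Sox1* at -0.28, *Sox4* at -0.17, *Sox8* at -0.12, *Sox2* at -0.09, *Sox5* at -0.08 and *Sox11* at 0.00. Quantile normalization, which is not a factor per pup, placed *Sox9* at -0.41, *Sox4* at -0.20, *Sox2* at -0.11 and *Sox11* at -0.03 relative to that median. Values with equal totals below are against 0 and so hold the common shift.

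**Figure D1:**
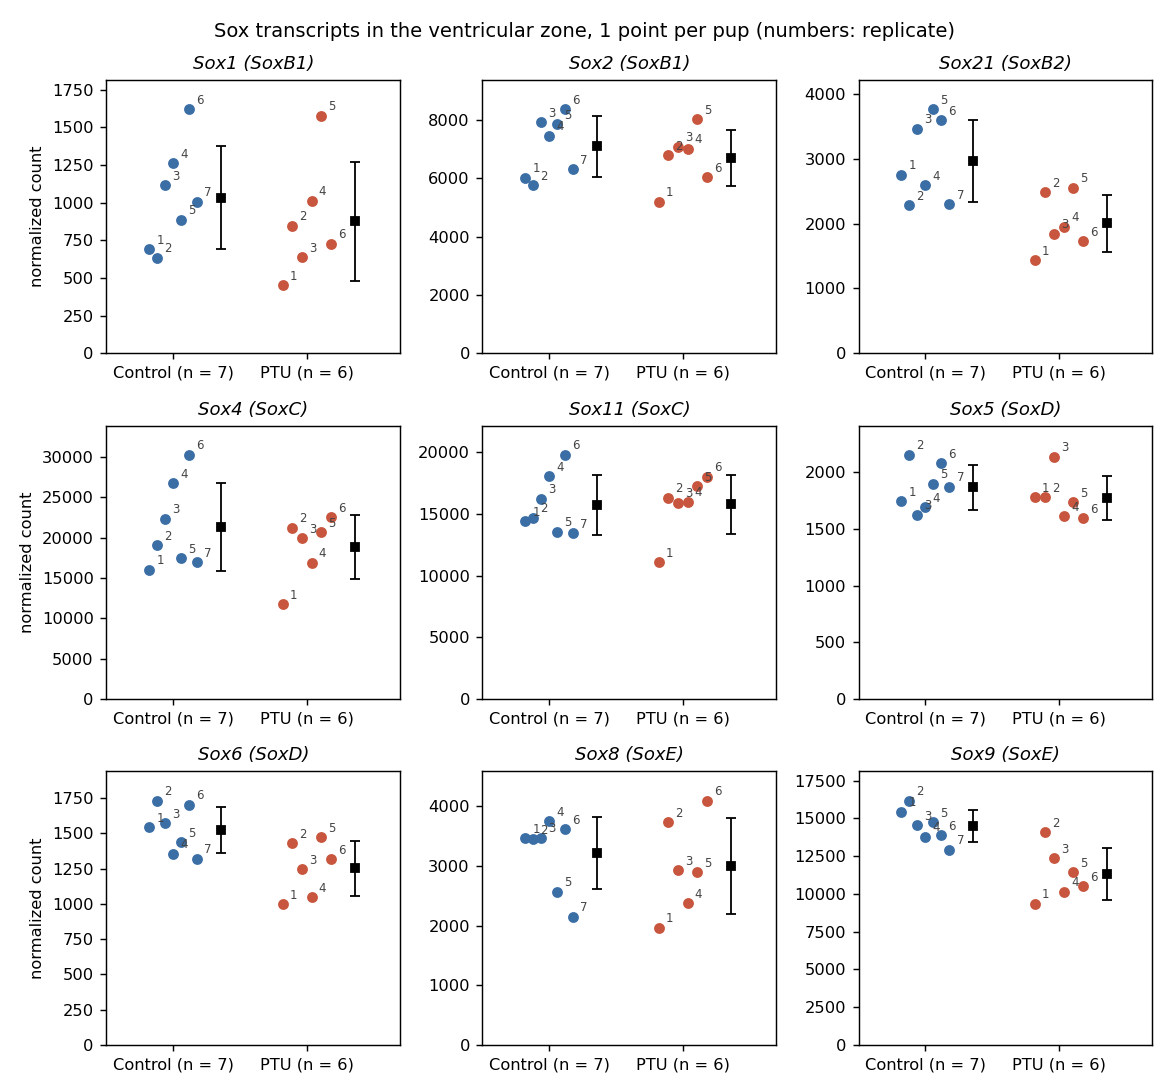
Normalized counts (y axis, from 0) of the 9 Sox transcripts in each of 7 Control (blue) and 6 PTU (red) pups, numbered by replicate, with the mean and SD of each group as black squares and bars. The groups overlap in every panel, with 5 of 6 PTU pups below the lowest Control for *Sox9* and 4 of 6 for *Sox21* and *Sox6*. For *Sox6*, PTU pup 6 is only just below that Control.

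The transcript with the smallest p was *Sox9*, the SoxE factor of radial glia and the astrocyte lineage. Control pups had 12924 to 16173 normalized counts (median 14545) and PTU pups 9358 to 14090 (median 10971). Of the 6 PTU pups, 5 were below the lowest Control, and PTU pup 2 alone lay among the Controls. The means were 14499 ± 1088 (SD, n = 7) and 11314 ± 1712 (SD, n = 6), a log2 fold change of -0.37 (standard error 0.09, 95% interval -0.57 to -0.17), that is, 0.775 times the Control level. The adjusted p in limma was 0.132, and an exact permutation test (two-sided, over all regroupings of the pups, unadjusted) gave p = 0.0035, where the smallest possible value was 0.000583. Without PTU pup 2 the groups did not overlap, which follows from leaving out the only PTU pup among the Controls and adds no evidence. The share of all rows separated without that pup is not given here. The log2 fold change was then -0.43 with an adjusted limma p of 0.0354, in a fit where 179 of all rows (1.23%) passed the threshold, against 0 with every pup kept. The omission of PTU pup 2 was the only alternative in which any member passed. The adjusted p of *Sox9* over the omission of each pup ran up to 0.263. With equal totals its log2 fold change was -0.17 (exact permutation p = 0.448).

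*Sox8*, also a SoxE transcript, is known from oligodendrocyte and astrocyte development. It ranged from 2148 to 3753 normalized counts in Controls (median 3464) and from 1964 to 4094 in PTU pups (median 2908). PTU pups thus held both the lowest and the highest value. The means were 3210 ± 604 (SD, n = 7) and 2997 ± 802 (SD, n = 6), and the log2 fold change of -0.12 had a 95% interval from -0.46 to 0.23 (limma adjusted p = 0.751). With equal totals it was 0.08. It was -0.0046 without PTU pup 1 and -0.22 without PTU pup 6, so that single pups decided its size.

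*Sox21*, the SoxB2 repressor, had the largest log2 fold change of the 9 members. Values of 2280 to 3767 normalized counts (median 2756) were found in Controls and of 1440 to 2555 (median 1899) in PTU pups. All 7 Controls were above 4 of the 6 PTU pups, and PTU pups 2 and 5 reached into the Control range. Means were 2966 ± 630 (SD, n = 7) among Controls and 2002 ± 438 (SD, n = 6) among PTU pups, or 0.675 times the Control level. The log2 fold change was -0.57 (standard error 0.15, 95% interval -0.88 to -0.25), with an adjusted limma p of 0.133 and an exact permutation p of 0.0117. It was -0.48 without PTU pup 1 and -0.37 with equal totals (exact permutation p = 0.0571).

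The SoxB1 transcripts differed by less than the spread between pups. *Sox2*, which keeps neural stem cells undifferentiated, lay between 5761 and 8384 normalized counts (median 7465) in Controls and between 5209 and 8028 (median 6918) in PTU pups. Its means of 7107 ± 1050 (SD, n = 7) and 6701 ± 969 (SD, n = 6) gave a log2 fold change of -0.08 (95% interval -0.32 to 0.15, limma adjusted p = 0.736), which was 0.12 with equal totals and, with 1 pup left out, ran from -0.14 (without PTU pup 5) to -0.01 (without PTU pup 1). *Sox1*, a marker of neural progenitors, was the most variable member, with coefficients of variation of 33.1% in Controls and 44.9% in PTU pups. Its values ran from 636 to 1621 (median 1007) in Controls and from 451 to 1578 (median 788) in PTU pups, so that nearly the whole ranges coincided. The log2 fold change was -0.28 (95% interval -0.81 to 0.25, limma adjusted p = 0.598), -0.11 without PTU pup 1 and -0.47 without PTU pup 5, and -0.08 with equal totals.

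The SoxD pair had the smallest standard error (*Sox5*) and one of the 3 lowest unadjusted p-values (*Sox6*). *Sox6*, which takes part in the timing of glial and neuronal maturation, had 1319 to 1731 normalized counts in Controls (median 1543) and 997 to 1473 in PTU pups (median 1281). The 4 lowest pups were all PTU pups, though PTU pup 6 (1317.35) was only just under the lowest Control (1318.6). PTU pups 2 and 5 lay among the Controls. The means of 1522 ± 161 (SD, n = 7) and 1251 ± 196 (SD, n = 6) differed by -0.29 on the log2 scale (standard error 0.11, 95% interval -0.52 to -0.07), with an adjusted limma p of 0.206 and an exact permutation p of 0.0192. Equal totals gave a difference of -0.09 (exact permutation p = 0.673). *Sox5*, known from deep-layer cortical neurons, ranged from 1625 to 2155 in Controls (median 1873) and from 1595 to 2138 in PTU pups (median 1759). The ranges were nearly the same, and the log2 fold change was -0.07 (standard error 0.09, 95% interval -0.26 to 0.12, limma adjusted p = 0.707), or 0.13 with equal totals. It was -0.13 without PTU pup 3, the highest PTU pup, and -0.04 without Control pup 2.

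The SoxC transcripts, which act in young neurons, showed no detectable difference. *Sox4* had 16040 to 30234 normalized counts in Controls (median 19016) and 11720 to 22497 in PTU pups (median 20287), with means of 21247 ± 5440 (SD, n = 7) and 18811 ± 3951 (SD, n = 6). The log2 fold change of -0.17 (95% interval -0.52 to 0.18, limma adjusted p = 0.638) was -0.04 without PTU pup 1 and 0.03 with equal totals. *Sox11* had 13428 to 19794 in Controls (median 14701) and 11108 to 18026 in PTU pups (median 16162). Its means were almost equal, 15743 ± 2418 (SD, n = 7) and 15773 ± 2425 (SD, n = 6), and the log2 fold change was 0.00 (95% interval -0.25 to 0.25, limma adjusted p = 1). PTU pup 1 was the lowest pup for both SoxC transcripts, and the other 5 PTU pups had at least 15930 normalized counts of *Sox11*.

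**Figure D2:**
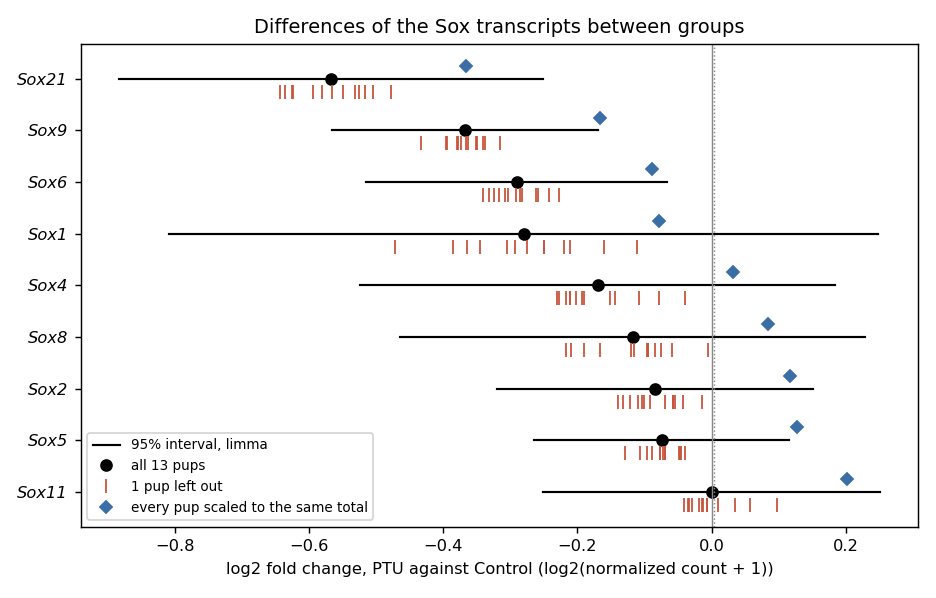
Log2 fold change of each Sox transcript (x axis, PTU against Control, on log2(normalized count + 1)), with black points for all 13 pups, lines for the 95% interval in limma, red ticks for fits with 1 pup left out and blue diamonds for equal totals. The intervals of *Sox21*, *Sox9* and *Sox6* lie below 0 before adjustment for multiple tests, and the dotted line marks the median of all rows at 0.00.

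Ratios within a pup do not depend on the factor by which a pup is scaled. As a description, 5 ratios between members of the same or a neighbouring subgroup are given, which were picked after the values were seen and so carry no test. For *Sox21* to *Sox2*, the Controls lay between -0.25 and 0.21 on the log2 scale relative to their mean and the PTU pups between -0.67 and -0.18. Of the 6 PTU pups, 6 were under the Control mean and 5 under the lowest Control, and PTU pup 2 lay within the Control range. The group means of this ratio stood -0.48 apart, and between -0.54 and -0.45 apart with each pup left out in turn.

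The other 4 ratios had smaller distances between the group means and wider overlap. These distances were -0.25 for *Sox9* to *Sox8*, -0.22 for *Sox6* to *Sox5*, -0.20 for *Sox1* to *Sox2* and -0.17 for *Sox4* to *Sox11*. With 1 pup left out they ran from -0.31 to -0.13 (without PTU pup 6), from -0.27 to -0.15, from -0.33 (without PTU pup 5) to -0.10 (without PTU pup 1) and from -0.21 to -0.14. For *Sox4* to *Sox11*, 6 of 6 PTU pups were under the Control mean and 2 under the lowest Control.

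**Figure D3:**
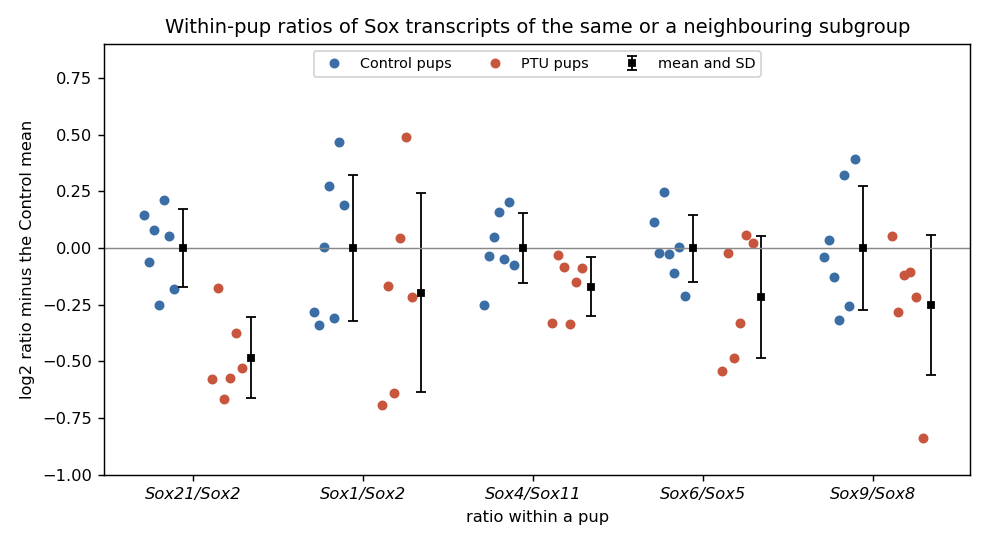
Log2 ratio of a pair of Sox transcripts within each pup, minus the Control mean of that ratio (y axis), for 7 Control pups (blue) and 6 PTU pups (red), with the mean and SD as black squares and bars. For *Sox21* to *Sox2*, 5 of 6 PTU pups lie below every Control, while the groups overlap more widely in the other 4 ratios.

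Several members varied together from pup to pup inside the groups. Correlations were computed on log2 values centred on each group's mean over all 13 pups, for the 4 pairs of members from the same subgroup, with 100000 permutations of the pups within groups. *Sox4* and *Sox11* varied most closely, with a Pearson r of 0.96 (permutation p = 3e-05, adjusted 0.00012) and a Spearman rho of 0.95 (permutation p = 0.00011, adjusted 0.00044). The relation was r = 0.97 in Controls and 0.96 in PTU pups, 0.96 without the 2 pups farthest from the median of *Sox4*, and 0.91 with equal totals. *Sox11* was also the row most like *Sox4*, and *Sox4* the row most like *Sox11*, among 11960 rows with a mean of at least 100.

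*Sox1* and *Sox2* had r = 0.84 (permutation p = 0.0012, adjusted 0.0024) and rho = 0.79 (permutation p = 0.00375, adjusted 0.0075), with 0.82 in Controls, 0.87 in PTU pups and 0.74 without the 2 farthest pups. With equal totals, r was 0.01, so this relation did not hold under that scaling. For *Sox8* and *Sox9*, r was 0.56 (permutation p = 0.0789, adjusted 0.105) and rho 0.36 (permutation p = 0.284, adjusted 0.379), and r was 0.22 without Control pup 7 and PTU pup 1. Left out alone, PTU pup 1 gave r = 0.39 and PTU pup 6 gave r = 0.75 (permutation p = 0.0101, unadjusted), so this pair rests on single pups. For *Sox5* and *Sox6*, r was 0.27 (permutation p = 0.408, adjusted 0.408), rho 0.10 (permutation p = 0.763, adjusted 0.763) and r without the 2 farthest pups 0.40. With equal totals these 2 pairs had r = 0.77 and 0.85. Pups share a library and a size factor across all their transcripts, which enters every such value.

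Among all 36 pairs of members, given as a description, *Sox2* and *Sox21* had r = 0.84, *Sox8* and *Sox11* 0.76 and *Sox6* and *Sox9* 0.72, and the lowest was -0.23 for *Sox1* and *Sox5*. The rows most like *Sox2*, by r over the 13 pups, were *Marchf8* (0.96), *Szrd1* and *Hddc3* (both 0.91). For *Sox1* they were *H3c1* (0.95), *Thtpa* (0.94) and *Ppp6r1* (0.93), and for *Sox21* *Arap1*, *Efnb1* (both 0.94) and *B3gat3* (0.93). Next to *Sox9* stood *Sncaip* (0.95), *Pole3* (0.93) and *Mrpl51* (0.92), and next to *Sox8* *Anp32b* (0.96), *Nfx1* (0.92) and *Dnmt1* (0.91), the last being the maintenance DNA methyltransferase. *Sox6* was closest to *Ercc2* (0.96), *Herc4* and *Pdcl* (both 0.91), and *Sox5* to *Ufd1* (0.83), *Hspa14* (0.82) and *Fam210a* (0.81). After each other, *Sox4* and *Sox11* were closest to *Mn1* (0.95 with both), followed by *Gse1* for *Sox4* and *Kdm1a* for *Sox11* (both 0.94). These are the highest of 11960 values each, at 13 pups.

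**Figure D4:**
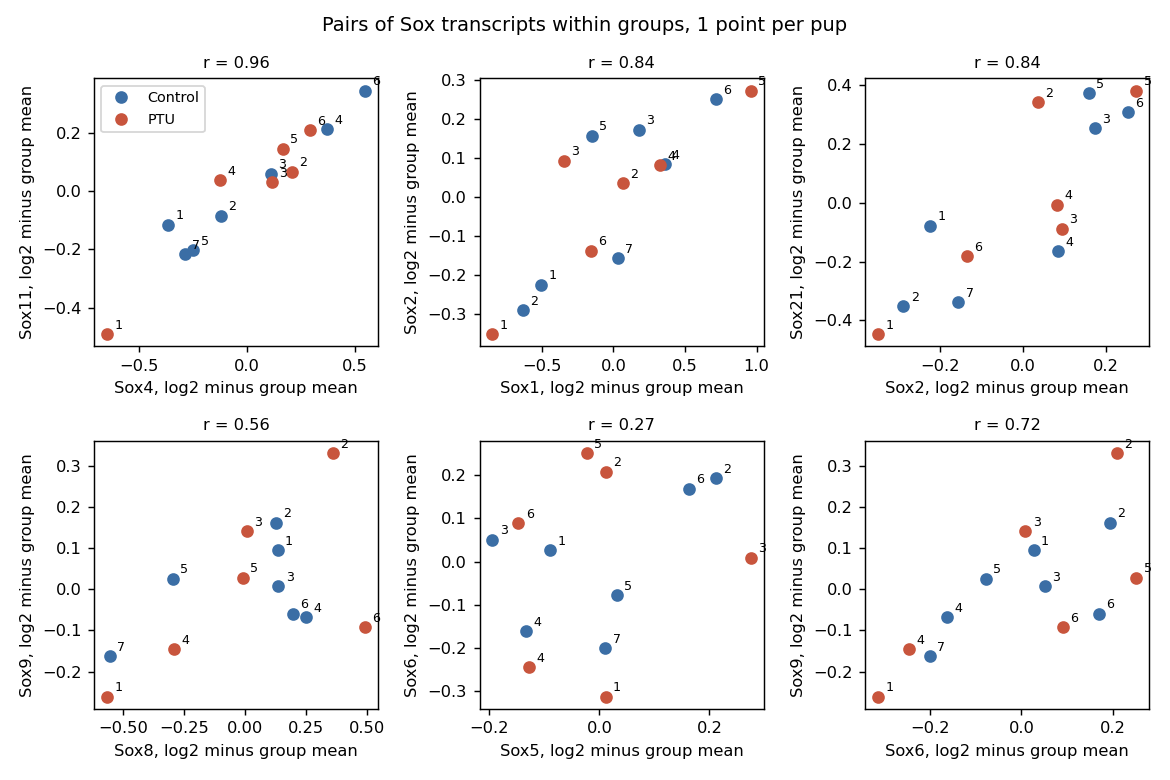
Log2 values of 6 pairs of Sox transcripts, each minus its group mean (both axes), with 1 point per pup numbered by replicate (Control blue, PTU red) and Pearson's r over 13 pups above each panel. Points for *Sox4* and *Sox11* follow 1 line in both groups, and those for *Sox5* and *Sox6* scatter.

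Genes that work with or under the Sox factors were read from the same fit, in lists chosen with earlier results of these data known. Of 17 of 19 listed SoxB and SoxE target genes that were tested, 0 passed the adjusted threshold, 16 had lower and 1 a higher mean in PTU pups, and 7 had an unadjusted limma p under 0.05, all lower. Over all rows, 49.3% were lower and 8.2% were lower with such a p. Of the 17, 7 are radial glia markers as well (among them *Gli3*, *Hes5* and *Nes*), so the counts of these lists are not separate. The list's median log2 fold change was -0.24, against 0.00 over all rows. *Col2a1* and *Col9a3*, collagens under direct control of *Sox9* in cartilage, had log2 fold changes of -0.84 (standard error 0.26) and -0.57 (standard error 0.17). The Controls of *Col2a1* ran from 389 to 1229 normalized counts and its PTU pups from 201 to 395. *Acan*, the 1 gene with a higher mean, was at 0.59 (standard error 0.69), and *Col9a1* was at -0.16 (standard error 0.64). Both were near the floor, with Control means of 9.97 and 12.9. *Gli2* and *Gli3*, effectors of hedgehog signalling, were at -0.42 (standard error 0.11) and -0.43 (standard error 0.13). The intermediate filament *Nes*, a classical target of *Sox2*, averaged 12969 ± 1907 (SD, n = 7) and 10955 ± 987 (SD, n = 6), and the Notch effector *Hes5* 238 ± 48.4 and 161 ± 38.0 normalized counts. Under equal totals, 1 of the 17 was lower with an unadjusted limma p under 0.05, against 0.554% of all rows, and the median of -0.04 stood against 0.20 over all rows. Without PTU pup 2, 1 of the 17 passed the adjusted threshold, where 1.23% of all rows did, and without PTU pup 1, 6 of 16 tested had an unadjusted limma p under 0.05, all lower, against 7.67% of all rows.

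The SoxC target genes are mostly genes of young neurons. All 13 were tested and 0 passed, while 1 passed without PTU pup 2, as did 1.23% of all rows. Of these, 9 had higher and 4 lower means in PTU pups, 5 had an unadjusted limma p under 0.05 in the higher direction and 1 in the lower, against 8.11% and 8.2% of all rows, and the median was 0.22. Of those 5, 4 (*Stmn2*, *Dcx*, *Tubb3* and *Bcl11b*) are neuron markers too. *Stmn1* and *Stmn2*, regulators of microtubules, were at 0.46 (standard error 0.11) and 0.48 (standard error 0.17), and *Dcx*, the doublecortin of migrating neurons, at 0.26 (standard error 0.10). *Sox4* and *Sox11* themselves were at -0.17 and 0.00. With 1 pup left out, the count with such a p in the higher direction ran from 3 (without Control pup 1, 3 or 5 or PTU pup 5 or 6) to 7 (without Control pup 6) and that in the lower direction from 0 (without Control pup 3 or 5 or PTU pup 3 or 6) to 3 (without PTU pup 1), where 6.12 to 10.3% of all rows were higher and 6.14 to 10.2% lower. Under equal totals, 7 of the 13 were higher and 0 lower with such a p, against 10.8% and 0.554% of all rows, and the median of 0.42 stood against 0.20.

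Partner factors of the Sox proteins were spread around 0. Of 15 of 16 tested, 6 had higher and 9 lower means, 0 passed and the median was -0.02. Equal totals, which put the median of all rows at 0.20, gave 14 higher and 1 lower with a median of 0.18. *Pax6*, which shares sites with *Sox2* in neural and lens progenitors, averaged 3150 ± 299 (SD, n = 7) and 2372 ± 512 (SD, n = 6), a log2 fold change of -0.44 (standard error 0.13), and was the only one of the list with an unadjusted limma p under 0.05, where 8.2% of all rows were lower with such a p. *Pax6* is also counted among the radial glia markers below. The next 3 by p were *Nfib* at -0.15, *Lef1*, which carries an HMG box of its own, at 0.24 and the POU factor *Pou2f1* at 0.16. Of 4 further Sox genes with a row, *Sox12*, the third SoxC gene, was at -0.09, *Sox13* (SoxD) at 0.08, *Sox7* at 0.14 and *Sox18* at 0.16, the last 2 being SoxF genes of blood vessels, and 0 had an unadjusted limma p under 0.05. Their signs rested on single pups: 1 was higher and 3 lower without PTU pup 5, and 2 each without Control pup 2 or PTU pup 2 or 6.

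Marker lists of whole cell types, chosen in the same way, are given beside the members. Their counts stand against the shares over all rows given above, 49.3% with lower means, 8.2% lower and 8.11% higher with an unadjusted p under 0.05. Of 13 radial glia markers, 13 had lower means in PTU pups and 9 an unadjusted limma p under 0.05, with a median of -0.39, between the values of *Sox9* and *Sox21*. Of 12 choroid plexus markers, 12 had lower means and 7 such a p (median -0.78), and of 7 astrocyte markers 7 had lower means and 3 such a p (median -0.22). Of 12 neuron markers, 11 had higher means and 6 such a p (median 0.39), and of 8 oligodendrocyte lineage markers 8 had higher means and 2 such a p (median 0.30). None of these lists held a gene with an adjusted p of at most 0.05, whereas 2 radial glia markers and 1 astrocyte marker had one without PTU pup 2, where 179 of all rows did. Such calls were also made for 2 radial glia markers with array weights (40 of all rows), and with the replicate number as a block (18 of all rows) for 1 radial glia and 1 intermediate progenitor marker (both lower) and 1 neuron marker (higher). With 1 pup left out, the counts with an unadjusted p under 0.05 ran from 8 to 11 of 13 for radial glia and from 3 (without Control pup 5 or PTU pup 6) to 7 of 12 for neuron markers. For choroid plexus markers they ran from 4 (without Control pup 3, 4, 5 or 7 or PTU pup 2 or 6) to 12 of 12 (without PTU pup 4), with 11 without Control pup 6, and for oligodendrocyte lineage markers from 2 to 4 of 8 (without PTU pup 1). Of all rows, 6.14 to 10.2% were lower and 6.12 to 10.3% higher with such a p in these fits. Under equal totals, 12 of 13 radial glia and 12 of 12 choroid plexus markers had lower means and 12 of 12 neuron markers higher ones, and the counts with an unadjusted p under 0.05 were 0 for radial glia, 3 for choroid plexus and 6 for neuron markers. Of all rows, 0.554% were lower and 10.8% higher with such a p in that fit, and the list medians of -0.19, -0.57 and 0.59 stood against 0.20. The astrocyte markers then split into 4 lower and 3 higher (median -0.02), with 0 such p. Medians were -0.29 for 7 intermediate progenitor, -0.32 for 7 of 8 ependymal, 0.17 for 6 of 8 endothelial and 0.04 for 8 microglia markers. With 1 pup left out they ran from -0.40 to -0.19, -0.50 to -0.22, 0.10 to 0.23 and -0.02 to 0.06. Means were lower for 6, 6, 2 and 3 of them, with an unadjusted p under 0.05 in 1, 3, 0 and 1, all lower. For ependymal markers, the latter count ran from 1 to 5 with 1 pup left out. The part of these lists in the Sox values was not tested.

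**Figure D5:**
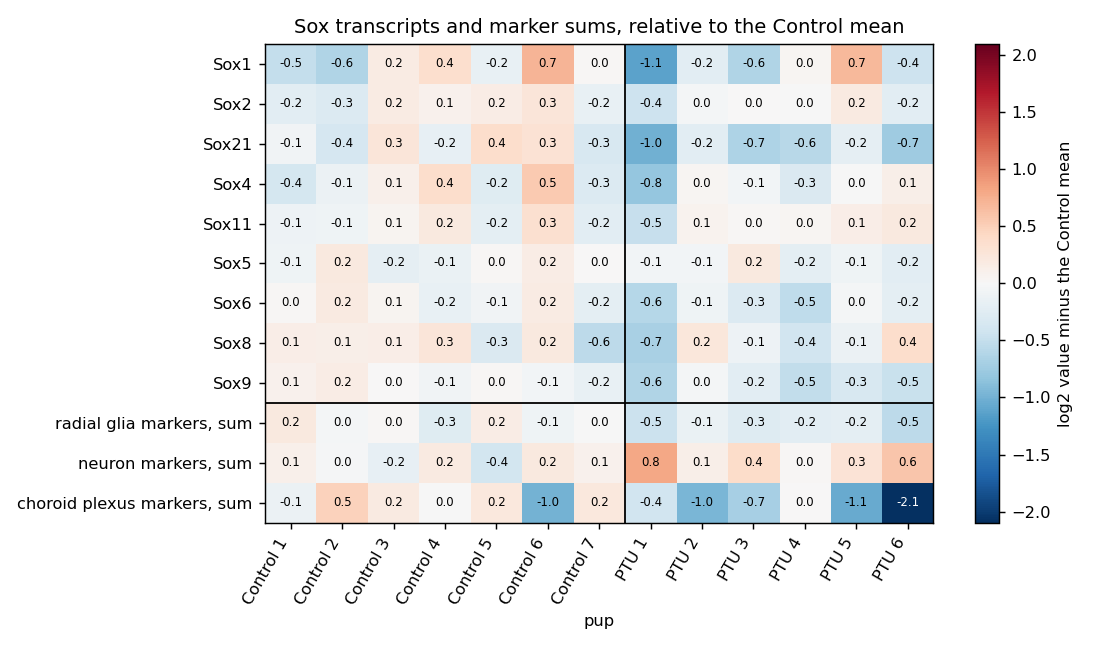
Log2 values of the 9 Sox transcripts and the log2 of 3 summed marker lists in each pup (columns), each row minus its Control mean, with blue below and red above it. PTU pup 1 is at -1.0 for *Sox21* and -0.6 for *Sox9* and at 0.8 for neuron markers, and PTU pup 6 is at -2.1 for choroid plexus markers. The choroid plexus sum is mostly *Ttr*.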

How the data were processed

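The libraries came from laser captured VZ (7 Control and 6 PTU male pups, 1 per litter). Per the labels and methods, libraries were made with a stranded total RNA kit after rRNA depletion, and the authors trimmed reads (Trimmomatic), used STAR 2.7.8a with the mRatBN7.2 genome, estimated counts in Partek and divided them by size factors. What the authors deposited is thus a scaled signal, called normalized counts here, and no raw count. Whether counting used strand is not given in the sources used here. Reads shared between transcripts were divided by estimation. The 7 deposited columns of the authors' own comparison (p-value, FDR, ratio, log2 ratio, fold change and 2 group means) were not used. Columns of per-sample values not used numbered 0.

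Rows with a mean of at least 10 (14606 of 14716) were put on the log2(normalized count + 1) scale, where differences of low rows are understated, and compared with limma 3.58.1 in R 4.3.3 (empirical Bayes moderation, variance trend), adjusting by Benjamini-Hochberg over all rows and a threshold of 0.05. Single members were also compared with exact permutation tests, and pairs with permutation tests (Python 3.11.15, scipy 1.17.1). Reads per pup were estimated from the step between low values; 88.7 to 90.2% of values between 20 and 150 were whole multiples of it within 0.05, too few for a count model. The members, gene lists and tests were chosen with earlier results of these data known. Named are every member with a row, from each gene list up to 4 rows with the smallest p, and the 3 rows most correlated with each member. The marker sums, *Nes*, *Hes5*, *Acan*, *Col9a1*, *Bcl11b* and the within-pup ratios were added after values were seen. On simulated data with the real rows, 26, 40, 49 and 50 of 50 rows changed by 0.5, 1, 2 and 4 on the log2 scale were recovered, and 11 of 14406 rows left unchanged passed the threshold. The labels number pups within groups; whether the pups are more than technical replicates rests on the statement of 1 pup per litter. Alternatives were pseudocounts of 0.1 and 10, no filter or a mean of at least 100, 3 other scalings, rows summed by gene name, limma without trend, with a robust prior, with array weights or with voom, a block for the replicate number, and omission of each pup. Figures were drawn with matplotlib 3.10.9.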

Additional observations from a re-analysis of the deposited data

Results flagged for a closer look

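A pup stood far from the rest of its group in 2 of the 18 groups of values tested (9 members in 2 groups), where chance gives about 1 in 20. *Sox5* was 2137.61 normalized counts in PTU pup 3, with a gap to the next PTU pup of 0.658 of the group's range, above the limit of 0.625 for 6 pups. *Sox11* was 11108 normalized counts in PTU pup 1, with a gap of 0.697 of the range. PTU pup 1 is the library that stood apart from the others over all rows.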

How the results depend on the processing

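All 8 members below 0 kept that direction with each pseudocount, row filter, variance setting, summing of rows by gene name, voom, array weights, upper quartile or quantile scaling, the block and each pup left out. With equal totals, 4 of them turned: *Sox2* 0.117, *Sox4* 0.0321, *Sox5* 0.127 and *Sox8* 0.0839 (exact permutation p = 0.353, 0.863, 0.569 and 0.736). That scaling moves the median of all rows by 0.20, and relative to it these 4 were at -0.09, -0.17, -0.08 and -0.12, as before. The rows with an unadjusted limma p under 0.05 then split into 1584 higher and 81 lower, against 1185 and 1198. *Sox11*, at 0.00, turned to -0.00202 with upper quartile (exact permutation p = 0.991), -0.0290 with quantile scaling (0.822) and -0.0358 with the replicate block, and ranged from -0.0417 to 0.10 with 1 pup left out (exact permutation p from 0.352 to 0.961). The cause of the changes for *Sox11* was not tested. Over all rows, limma called 40 with array weights and 18 with the block, and from 0 to 179 with 1 pup left out (7 without Control pup 6, 179 without PTU pup 2). Of the members, 0 to 1 were called with 1 pup left out, *Sox9* without PTU pup 2. Replicate numbers belong to pups of different litters and were not taken to pair them. The limit chosen for pairing, a correlation above 0.1 in every pair, was not met. Same-numbered pups correlated by -0.07 to 0.20, with 4 of 6 numbers above 0.1. Of the Controls, 3 correlated best with the PTU pup of their own number. Whether pups of the same number shared a processing step was not tested. In the block, *Sox9* was at -0.39 and *Sox21* at -0.62 (limma adjusted p = 0.0601 for both).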
